A study of Homo sapiens with 4 samples.

Results

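The NRF2 axis was read here through 9 genes: the transcription factor gene NFE2L2, its repressor gene KEAP1, and the redox and NADPH genes NQO1, HMOX1, TXNRD1, TXN, SRXN1, PGD and ME1. They were taken by gene symbol from the 26603 genes of the deposited table, and each of the 9 symbols matched 1 row. The samples were cultures of PLC8024, a human liver tumour cell line, sequenced as 2 control libraries and 2 drug libraries. The labels give neither the drug, its dose, its duration nor the vehicle of the controls, and nothing in them tells whether the 4 libraries are separate cultures. P-values therefore reflect no more than the spread among these 4 samples, which may be technical. Levels are given as FPKM, reads scaled for gene length and library total.

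NFE2L2 encodes NRF2, which KEAP1 holds in the cytoplasm and hands to a ubiquitin ligase for breakdown. When electrophiles or oxidants modify cysteines of KEAP1, NRF2 builds up, enters the nucleus, pairs with small MAF proteins and binds antioxidant response elements near its target genes. NRF2 is thus controlled largely at the protein level, which messenger RNA does not measure. Its targets include the genes of thioredoxin reductase, quinone reductase, heme oxygenase and enzymes that make NADPH.

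With drug, KEAP1 and the thioredoxin reductase gene TXNRD1 rose and PGD, the 6-phosphogluconate dehydrogenase gene of the pentose phosphate pathway, fell, all by small amounts. In bulk RNA a change in the share of cells of some type cannot be told apart from a change in RNA per cell. The mean FPKM with drug was 1.18 times the control mean for KEAP1, 1.15 times for TXNRD1 and 0.819 times for PGD. NFE2L2, NQO1, HMOX1, TXN and ME1 did not pass the test, and SRXN1 lay below the level at which genes were tested. A gene was tested where its mean reached 1 FPKM in either group, and it passed at an adjusted p under 0.05 (limma on log2(FPKM + 1), adjusted over all 11227 genes tested). Of the 8 members tested 3 passed, where 13.8% of all tested genes did. Of these members 2 were higher, against 7.78% of all tested genes, and 1 was lower, against 6.02%. The drug libraries lay on 1 side of both controls in 7 of the 8 tested members (3 above, 4 below), but the same was true of 63.5% of all tested genes. The median log2 fold change was -0.02 for the 8 members and 0.04 for all genes tested.

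**Figure D1:**
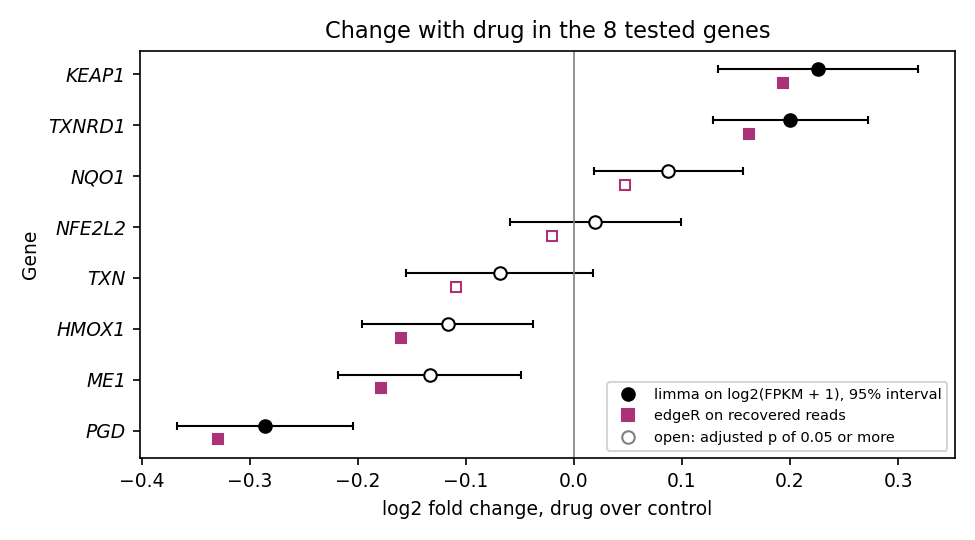
Log2 fold change of drug over control in the 8 tested NRF2 axis genes, by limma on log2(FPKM + 1) with its 95% interval (circles) and by edgeR on reads recovered from the deposited values (squares). Filled symbols have an adjusted p under 0.05: KEAP1, TXNRD1 and PGD by both tests, and ME1 and HMOX1 by edgeR alone.

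The promoters of the members were searched for the core letters of the antioxidant response element. The motif searched was TGACNNNGC on both strands, in windows from 250 bases before to 50 after a RefSeq start (GRCh38.p14). The RefSeq table held 11 windows for 8 of the 9 members. HMOX1 had no entry. In these windows at least 1 match was found for KEAP1, TXNRD1, PGD and ME1, and none for NFE2L2, NQO1, TXN or SRXN1. Bases outside the windows were not searched, so a gene without a match here may have one elsewhere. Of all 27305 genes with a window, 16.1% held a match, and of all 35116 windows 13.3% did. The 250 bases before each start are printed 5′ to 3′ for the 5 matching windows, since they belong to the 3 members that passed and to ME1, with matches in capitals (those on the other strand read as the reverse complement).
KEAP1, downstream start, chr19:10502772-10503021, minus strand: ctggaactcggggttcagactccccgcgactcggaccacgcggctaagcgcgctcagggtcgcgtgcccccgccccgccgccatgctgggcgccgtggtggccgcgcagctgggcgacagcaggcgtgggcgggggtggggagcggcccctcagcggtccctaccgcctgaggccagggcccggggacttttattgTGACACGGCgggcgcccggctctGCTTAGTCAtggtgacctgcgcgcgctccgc
TXNRD1, upstream start, chr12:104215529-104215778, plus strand: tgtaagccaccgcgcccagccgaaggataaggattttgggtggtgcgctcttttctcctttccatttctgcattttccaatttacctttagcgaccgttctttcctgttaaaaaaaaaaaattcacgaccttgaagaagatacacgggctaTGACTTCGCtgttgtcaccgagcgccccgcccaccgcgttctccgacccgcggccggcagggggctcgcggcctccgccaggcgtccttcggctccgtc
TXNRD1, downstream start, chr12:104286782-104287031, plus strand: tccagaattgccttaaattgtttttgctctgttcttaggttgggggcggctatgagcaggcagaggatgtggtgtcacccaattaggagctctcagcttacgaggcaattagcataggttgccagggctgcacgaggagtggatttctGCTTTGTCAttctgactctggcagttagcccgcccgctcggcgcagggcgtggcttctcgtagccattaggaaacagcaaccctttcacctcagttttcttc
PGD, chr1:10398814-10399063, plus strand: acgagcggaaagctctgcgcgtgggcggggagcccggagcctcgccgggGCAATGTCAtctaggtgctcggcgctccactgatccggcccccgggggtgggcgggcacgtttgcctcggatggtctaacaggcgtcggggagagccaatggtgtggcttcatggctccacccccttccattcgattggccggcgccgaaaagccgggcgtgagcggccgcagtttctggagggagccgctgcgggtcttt
ME1, chr6:83431052-83431301, minus strand: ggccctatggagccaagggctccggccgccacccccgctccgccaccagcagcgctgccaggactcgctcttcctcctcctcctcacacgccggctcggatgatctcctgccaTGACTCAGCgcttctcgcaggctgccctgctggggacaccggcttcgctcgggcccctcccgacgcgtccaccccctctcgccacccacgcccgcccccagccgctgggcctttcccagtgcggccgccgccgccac
The ME1 match, TGACTCAGC, began at position -137 from the start. Its first letters also hold an AP-1 match (TGANTCA, either strand), a motif found in 7.71% of all windows. The PGD match, TGACATTGC read on the other strand, spanned positions -201 to -193. KEAP1 had TGACACGGC and, on the other strand, TGACTAAGC before its downstream start, while the window of its upstream start had no match. Further matches, which reach past the printed bases, were TGACGGAGC at the upstream start of TXNRD1 and TGACGGTGC after the start of ME1. KEAP1 and TXNRD1 went up while PGD went down, so genes with a match did not share a direction. These matches describe letters only, and no binding was measured.

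Among the regulators, KEAP1 (ENSG00000079999, chromosome 19 at 10486120 to 10503741, GRCh38) changed and NFE2L2 did not pass. KEAP1 was at 21.5 and 22.4 FPKM in control libraries 1 and 2 and at 25.4 and 26.3 FPKM in drug libraries 1 and 2. Both drug libraries were above both controls. The rise was 0.23 ± 0.04 (SE) on the log2 scale (limma adjusted p = 0.0223), from 21.97 ± 0.598 to 25.9 ± 0.687 FPKM (SD, n = 2 each). NFE2L2 (ENSG00000116044, chromosome 2 at 177227595 to 177392697) was at 23.9 and 23.9 FPKM in the controls, against 24.7 and 23.9 FPKM with drug. These groups overlapped, and only drug library 1 stood above the rest. Its log2 fold change was 0.02, with a 95% interval from -0.06 to 0.10 (limma adjusted p = 0.694). The sign turned to -0.02 with edgeR on recovered reads (adjusted p = 0.731). With 1 library left out the limma adjusted p of KEAP1 was 0.0967 (control 1 removed), 0.0684 (control 2), 0.0658 (drug 1) or 0.103 (drug 2), and with no filter on low values it was 0.0782. KEAP1 also passed with edgeR on recovered reads (adjusted p = 0.00614).

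Other factors that act on NRF2 or share its partners were read from a list of 12 genes, all tested. NFE2L1, a relative of NFE2L2 that controls proteasome genes, rose from 50.6 ± 1.06 to 58.0 ± 1.31 FPKM (limma adjusted p = 0.0225). MAFK, a small MAF gene whose product pairs with NRF2, fell from 22.8 ± 0.561 to 18.6 ± 0.779 FPKM (limma adjusted p = 0.0179). The other 10 did not pass in limma. They include the ubiquitin ligase genes CUL3 and RBX1, the competing repressor gene BACH1 and the small MAF genes MAFF and MAFG. With edgeR on recovered reads MAFG passed as lower (adjusted p = 0.0295) and CREBBP as higher (0.0107), as with DESeq2 (0.0389 and 0.0343). The share called by limma was 16.7%, near the 13.8% of all tested genes, and the list's median log2 fold change was 0.03. By edgeR 2 of the 12 were higher and 2 lower, where 19.4% of all tested genes were called.

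**Figure D2:**
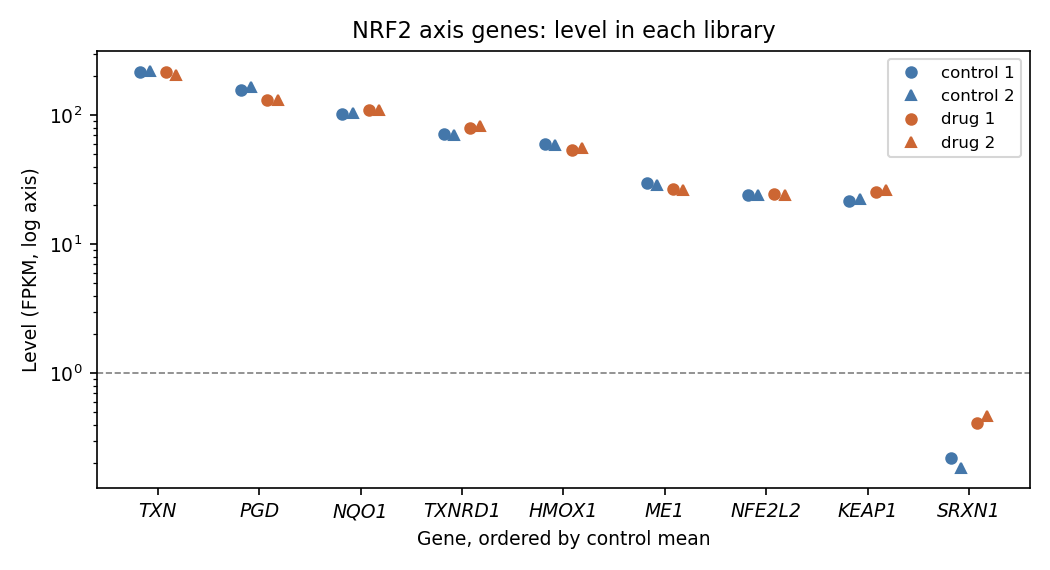
Level of each of the 9 genes in each library (FPKM, log axis; blue circles and triangles are control libraries 1 and 2, orange ones drug libraries 1 and 2), with the test's filter of 1 FPKM as a dashed line. The order of the genes is the same in both groups except for KEAP1 and NFE2L2, and SRXN1 lies under the line in all 4 libraries.

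Of the thioredoxin system members TXNRD1 passed, TXN did not and SRXN1 was not tested. TXNRD1 (ENSG00000198431, chromosome 12 at 104215779 to 104350305) encodes the selenoenzyme that reduces thioredoxin with NADPH. It was at 71.3 and 69.97 FPKM in the controls, against 80.1 and 82.4 FPKM with drug. Both drug libraries exceeded both controls. TXNRD1 rose by 0.20 ± 0.03 (SE) on the log2 scale, with a 95% interval from 0.13 to 0.27 (limma adjusted p = 0.0157). With control 1, control 2, drug 1 or drug 2 removed its limma adjusted p was 0.0682, 0.0780, 0.0550 or 0.0807, and with no filter 0.0603, so the call was lost each time, whereas edgeR on recovered reads gave 0.0046. TXN (ENSG00000136810, chromosome 9 at 110243811 to 110256640), the thioredoxin gene itself, was at 217 and 222 FPKM in the controls, against 215 and 204 FPKM with drug. Drug library 1 lay close under the controls and drug library 2 further below. Its log2 fold change of -0.07 had a 95% interval from -0.16 to 0.02 (limma adjusted p = 0.225). Copies of TXN were rarely counted: the pseudogenes TXNP4 and TXNP6 had at most 14 reads in a library, against 6263 to 8739 for TXN.

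SRXN1 (ENSG00000271303, chromosome 20 at 646615 to 653370) encodes sulfiredoxin, which repairs overoxidised peroxiredoxins and is a classical NRF2 target. It was nearly silent in the table, at 0.222 and 0.184 FPKM in the controls, against 0.412 and 0.470 FPKM with drug. These values rest on 16 and 18 reads in control and 42 and 46 reads with drug. Both drug libraries were above both controls, with a ratio of means of 2.17. Fitted with edgeR on genes with at least 10 reads in 2 libraries, a filter chosen after the data were seen, its log2 fold change was 1.09 and it did not pass (adjusted p = 0.0586). In the authors' deposited table its adjusted p was 0.283. A second gene on the same strand, ENSG00000270299 (AL121758.1 in GENCODE 29), covers 85.0% of the SRXN1 exon bases and had 0, 1, 4 and 7 reads in control 1, control 2, drug 1 and drug 2. Whether shared reads were left out of both counts was not tested, so the SRXN1 level is uncertain. In each library 63.1% to 68.7% of genes with 1 to 9 reads had an even number of them, and how mates were counted was not tested.

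The wider thioredoxin and peroxiredoxin list had 21 tested genes, of which 1 rose and 3 fell (median -0.02). The share called by limma, 19%, lay near the 13.8% of all tested genes. By edgeR on recovered reads 1 was higher and 6 lower, where 19.4% of all tested genes were called. PRDX3, PRDX4 and NXN were lower by edgeR but not by limma (edgeR adjusted p = 0.018, 0.0236 and 0.0451). The riser was TXNL1, a thioredoxin-like protein gene (9.81 ± 0.0720 to 11.03 ± 0.0292 FPKM, limma adjusted p = 0.0445). The fallers were GLRX, the glutaredoxin gene (11.1 ± 0.309 to 8.89 ± 0.232 FPKM, limma adjusted p = 0.0151), PRDX6 (158 ± 1.45 to 138 ± 1.58 FPKM, 0.0122) and PRDX1 (356 ± 12 to 315 ± 9.98 FPKM, 0.0411), which encode peroxiredoxins. The mitochondrial partners TXN2 and TXNRD2 did not pass (limma adjusted p = 0.752 and 0.194).

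Of the 2 NADPH-forming members, PGD had the larger change. PGD (ENSG00000142657, chromosome 1 at 10398592 to 10420144) was at 157 and 164 FPKM in the controls, against 131 and 132 FPKM with drug. Both drug libraries were below both controls and nearly equal to each other. PGD fell by 0.29 on the log2 scale (SE 0.03, 95% interval -0.37 to -0.20, limma adjusted p = 0.0094), and edgeR on recovered reads gave an adjusted p of 0.000192. Its limma call was lost without drug 1 (adjusted p = 0.0512) and without the filter (0.0528). Its pseudogene PGDP1 had at most 4 reads in a library, against 14888 to 21162 for PGD. ME1 (ENSG00000065833, chromosome 6 at 83210389 to 83431071), the cytosolic malic enzyme gene, was at 29.98 and 28.7 FPKM in the controls, against 26.9 and 26.5 FPKM with drug. The drug libraries were again the lower ones, but the log2 fold change of -0.13 (95% interval -0.22 to -0.05) did not pass after adjustment (limma adjusted p = 0.0608). In edgeR, on recovered reads, ME1 did pass as lower (adjusted p = 0.0145).

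Among 17 tested genes of the NADPH supply list, 1 rose and 4 fell in limma, with a median of -0.05 (29.4% called, where 13.8% of all tested genes were). EdgeR on recovered reads gave 1 higher and 7 lower, where it called 19.4% of all tested genes. IDH1, the cytosolic NADP-dependent isocitrate dehydrogenase gene, fell from 136 ± 0.830 to 99.9 ± 1.69 FPKM (limma adjusted p = 0.00187). H6PD, which encodes an NADPH-forming enzyme of the endoplasmic reticulum, fell from 12.1 ± 0.543 to 9.81 ± 0.201 FPKM (0.0225), and NNT, the mitochondrial transhydrogenase gene, from 10.3 ± 0.144 to 8.76 ± 0.340 FPKM (0.0365). The fourth that fell in limma was the pentose phosphate gene TALDO1, outside the rule for named genes. MTHFD1L, a mitochondrial folate enzyme gene, rose from 13.4 ± 0.637 to 16.6 ± 0.550 FPKM (0.0214).

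The detoxifying members NQO1 and HMOX1 did not pass in limma. NQO1 (ENSG00000181019, chromosome 16 at 69706996 to 69726951), which reduces quinones by 2 electrons and is a standard readout of NRF2, was at 102 and 105 FPKM in the controls, against 109 and 111 FPKM with drug. All drug values exceeded all control values. The log2 fold change was 0.09, with a 95% interval from 0.02 to 0.16 before adjustment (limma adjusted p = 0.0936), and with edgeR on recovered reads it was 0.05 (0.345). HMOX1 (ENSG00000100292, chromosome 22 at 35380361 to 35394214), which opens the heme ring and answers to both NRF2 and BACH1, was at 59.6 and 58.9 FPKM in the controls, against 53.4 and 55.7 FPKM with drug. It lay on the opposite side from NQO1, with both drug libraries below both controls. Its log2 fold change of -0.12 (95% interval -0.20 to -0.04) missed the threshold in limma (adjusted p = 0.0693) but passed as lower in edgeR (0.0216) and with TMM-scaled FPKM in limma (0.0385).

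In the list of heme, quinone and carbonyl genes 16 were tested, 4 fell and none rose (median -0.07, with 25% called against 13.8% of all tested genes). At an unadjusted p under 0.05 in limma 1 gene was higher, CRYZ, a quinone reductase gene, while edgeR on recovered reads gave 0 higher and 6 lower after adjustment. ALDH2, the mitochondrial aldehyde dehydrogenase gene, fell from 25.2 ± 0.350 to 16.8 ± 0.101 FPKM (limma adjusted p = 0.00154). BLVRB, a biliverdin reductase gene, fell from 24.7 ± 0.679 to 20.2 ± 1.09 FPKM (0.0258), and NQO2, the second quinone reductase gene, from 57.7 ± 1.58 to 50.1 ± 0.276 FPKM (0.0192). The remaining one was CBR1, a carbonyl reductase gene, named after its values were seen (24.85 and 25.2 FPKM in control, 21.2 and 22.2 FPKM in drug libraries).

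Other genes known as NRF2 targets mostly fell where they changed, with the glutathione synthesis genes as the exception. Of 27 tested, 2 rose and 11 fell, where 7.78% of all tested genes rose and 6.02% fell, and the list's median log2 fold change was -0.09. The 2 risers were the subunit genes of glutamate cysteine ligase, the first enzyme of glutathione synthesis: GCLC (16.9 ± 0.286 to 21.9 ± 0.0336 FPKM, limma adjusted p = 0.00529) and GCLM (48.8 ± 0.356 to 57.4 ± 0.896 FPKM, 0.0106). By log2 fold change on the FPKM + 1 scale, the naming rule took from the fallers GPX2, a glutathione peroxidase gene (127 ± 1.77 to 76.1 ± 2.99 FPKM, limma adjusted p = 0.00143), IDH1 and AKR1C2 (22.97 ± 0.128 to 16.9 ± 0.486 FPKM, 0.00457). By the ratio of mean FPKM, AKR1C3 (0.712) was lower than IDH1 (0.734) and AKR1C2 (0.736). AKR1C2 has near-identical neighbours with which it could share reads. The other 8 that fell were AKR1C3, AKR1C1, SLC7A11, FTL, BLVRB, CBR1, PRDX1 and TALDO1. Some of these genes sit on several of the lists: over all 6 lists there were 97 different tested genes, of which 8 rose and 19 fell.

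In the superoxide and peroxide defence list 15 genes were tested, 3 rose and 2 fell (median -0.00, with 33.3% called against 13.8% of all tested genes). SELENOW, a selenoprotein gene (6.60 ± 0.260 to 8.79 ± 0.504 FPKM, limma adjusted p = 0.0184), AIFM2, which encodes a ubiquinone reductase that restrains lipid peroxidation (6.62 ± 0.210 to 8.04 ± 0.0340 FPKM, 0.0241), and the selenoprotein gene SELENOT (21.98 ± 0.204 to 24.99 ± 0.0335 FPKM, 0.0215) rose. GPX2 and GPX3 (21.4 ± 0.164 to 16.04 ± 0.166 FPKM, 0.00421), both glutathione peroxidase genes, fell. The superoxide dismutase genes SOD1 and SOD2 and catalase (CAT) did not pass in limma. CAT passed as lower with edgeR (adjusted p = 0.0239) and DESeq2 (0.016), and SOD2 as lower with DESeq2 (0.0334). In the other direction, DESeq2 also called another gene of the list, not named here, as higher.

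**Figure D3:**
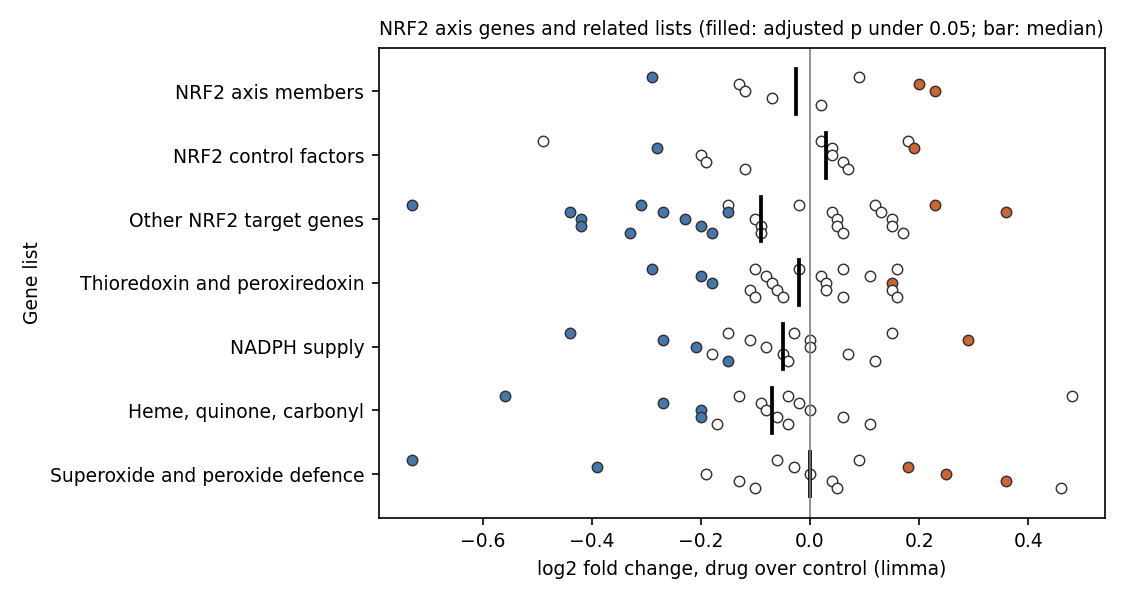
Log2 fold change (limma) of every tested gene in the NRF2 axis and in 6 related lists, with filled circles for an adjusted p under 0.05 and a bar at each list's median. Filled circles lie mostly left of 0 in the list of other NRF2 targets (11 lower, 2 higher), while the axis itself has 2 on the right and 1 on the left.

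Of the 21 list genes named by rule, GCLC, GPX2, IDH1, AKR1C2, ALDH2 and GPX3 passed under each of the 12 other settings, and 15 lost their call under at least 1. GCLM lost it without control 1, control 2 or drug 1 (adjusted p from 0.0578 to 0.0603), MAFK and BLVRB without the same 3 libraries (0.0692 to 0.108), and SELENOW without control 1, control 2 or drug 2 (0.0693 to 0.0909). NFE2L1, GLRX, PRDX6, NQO2 and SELENOT (0.0548 to 0.104), MTHFD1L, H6PD, NNT and AIFM2 (0.0580 to 0.149), PRDX1 (0.0757 to 0.148) and TXNL1 (0.129 to 0.164) lost it whichever library was left out. With the replicate number as a block TXNL1, PRDX1, MTHFD1L, H6PD, NNT and AIFM2 also lost it (0.0508 to 0.0807). With TMM-scaled FPKM PRDX1 (0.0602) and TXNL1 (0.0809) did, and with DESeq2 TXNL1 (0.0594). All 15 but GCLM also lost it without the filter on low values (0.0537 to 0.161). CBR1 and TALDO1 lost theirs with no filter (0.0829 and 0.0877) and whichever library was left out (0.0653 to 0.127), and TALDO1 also with the block (0.0644).

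By level, the members spanned a wide range. In control libraries the order from high to low was TXN, PGD, NQO1, TXNRD1, HMOX1, ME1, NFE2L2, KEAP1 and SRXN1, and neighbours did not overlap across the 2 libraries of the group. With drug the order in deposited FPKM was the same except that KEAP1 stood above NFE2L2. This swap and other parts of the order, such as TXN above PGD, depend on the gene length used, as given below. Averaged over the 4 libraries, TXN lay at percentile 99.0 of the 11227 tested genes, PGD at 98.4, NQO1 at 97.5, TXNRD1 at 96.2 and HMOX1 at 94.5. ME1, NFE2L2 and KEAP1 lay at percentiles 86.9, 84.4 and 84.2.

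The rank of NFE2L2 depended on the length by which its reads were divided. Its deposited FPKM corresponds to a gene model of 14976 bases, whereas the exons of all its GENCODE 29 transcripts together cover 5979 bases and its APPRIS principal transcript has 2853. On the FPKM scale with the principal transcript as length, NFE2L2 was at 126, 126, 130 and 125 in control 1, control 2, drug 1 and drug 2. That is 5.25 times its deposited FPKM and above NQO1 (104 to 113 on the same scale). TXNRD1 was at 119 to 141 and PGD at 232 to 291 on this scale, 1.71 and 1.77 times their deposited FPKM. PGD (277 and 291) then stood above TXN (253 and 258) in control 1 and control 2. In drug 1 and drug 2 PGD stood below TXN (232 and 233 against 250 and 237). KEAP1, NQO1, HMOX1, TXN and ME1 moved by 1.27 times or less. These values count reads from all exons of a gene, so they are too high where other transcripts contribute. The ratio of a gene's FPKM between groups is not affected, because the same length divides every library. The limma fit on log2(FPKM + 1) does depend on the length and was not repeated on this scale.

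**Figure D4:**
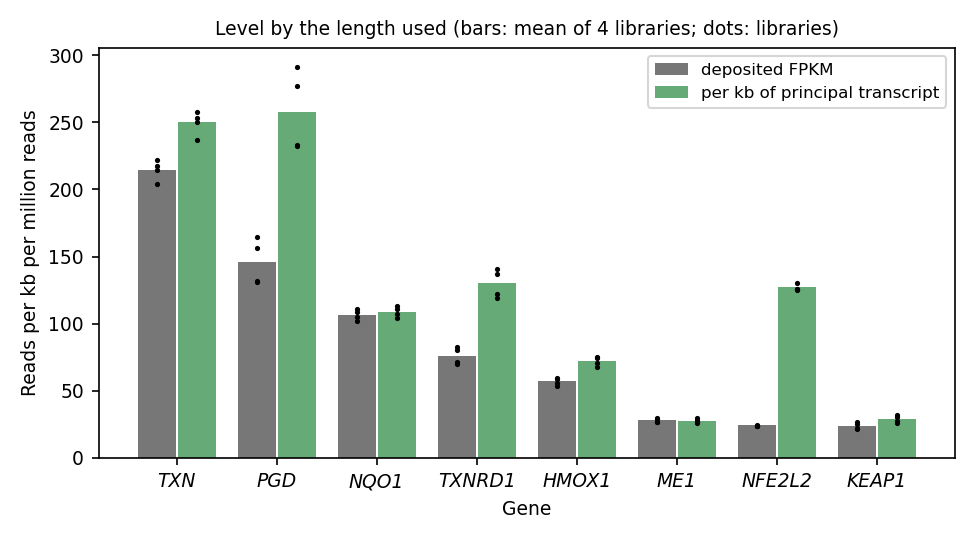
Mean level over the 4 libraries of 8 members as deposited FPKM (grey) and on the same scale with the principal GENCODE 29 transcript as length (green), with dots for single libraries. By these means NFE2L2 moves from 7th of 8 in deposited FPKM to 4th, while in both controls alone it lies above TXNRD1 on the principal-transcript scale (126 and 126 against 122 and 119).

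Ratios taken within a library do not depend on how libraries are scaled to each other. The FPKM ratio of KEAP1 to NFE2L2 was 0.900 and 0.936 in the controls, against 1.03 and 1.1 with drug. Whether this ratio lies above or below 1 depends on the gene lengths used. The ratio of TXNRD1 to TXN was 0.328 and 0.315 in the controls, against 0.373 and 0.404 with drug. Both regulator and reductase ratios were thus higher in each drug library than in each control. NQO1 to HMOX1 went from 1.71 and 1.78 in the controls to 2.04 and 1.99 with drug, and PGD to ME1 from 5.22 and 5.72 to 4.88 and 4.98. Of 7 ratios computed, these 4 are given, and in each the groups were separate, with an exact two-sided permutation p of 0.333, the smallest that 2 against 2 libraries can give.

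By the distance between centred log2(FPKM + 1) profiles over the 4 libraries, KEAP1 and TXNRD1 were each other's nearest member (0.0620), as were HMOX1 and ME1 (0.0658). SRXN1 lay nearest TXNRD1 (0.0629), but it was below the filter, at 0.184 to 0.470 FPKM. The added 1 shrinks changes this low: its log2 fold change was 0.26 in unfiltered limma, against 1.09 in edgeR with the 10-read filter. PGD was nearest ME1 but at the largest distance of the 9 (0.178). Among the 97 tested list genes, the nearest were NFE2L1 for KEAP1 (0.0340), CREBBP for TXNRD1 (0.0303), FTL for PGD (0.0494), NADK for NQO1 (0.0218) and PIR for HMOX1 (0.0331). With 4 libraries in 2 groups these distances mainly order genes by the size and sign of their change.

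Read depth and cell identity were checked over the whole table. Recovered gene reads totalled 28526098 and 38611635 in the controls and 40279560 and 38685856 with drug. Each tested member had at least 2196 reads in every library. Over all genes 873 were higher and 676 lower in limma, so 56.4% of calls were higher, while TMM-scaled FPKM gave 549 and 724 (43.1%) and edgeR on recovered reads 940 and 1233 (43.3%, with 19.4% of tested genes called). With edgeR 5 members passed, KEAP1 and TXNRD1 as higher and PGD, HMOX1 and ME1 as lower. The same 5 have an adjusted p under 0.05 in the authors' deposited table. The authors' adjusted p was 0.00222 for KEAP1, 2.76e-07 for TXNRD1, 6.77e-21 for PGD, 0.00683 for HMOX1 and 0.0133 for ME1. There 7.21% of 26603 genes have one under 0.05, a set that, unlike the tested genes, includes those below the filter. Of 12 hepatocyte markers 9 reached 1 FPKM in a group. TTR and APOB were near 0 and AFP was at 0.372 to 0.449 FPKM. The 12 summed to 1640 FPKM in both controls and to 1140 and 1120 FPKM with drug. In limma 3 rose and 5 fell, where 13.8% of all tested genes were called. The lower sum came mostly from the fibrinogen genes FGB (556 and 549 FPKM in the controls, 295 and 274 FPKM with drug) and FGG (650 and 646 FPKM, then 325 and 306 FPKM). ALB (3.15 and 3.23 FPKM, then 1.31 and 1.32 FPKM), APOA1 and TF were also lower in both drug libraries. HNF4A and the keratin genes KRT8 (130 and 137 FPKM, then 171 and 180 FPKM) and KRT18 (158 and 164 FPKM, then 221 and 233 FPKM) were higher in both. The part of these marker changes in the member results was not tested. Fibroblast markers summed to 0.620 to 1.07 FPKM, none reaching 1 FPKM. Endothelial markers summed to 4.73 and 4.22 FPKM in the controls and 2.15 and 2.26 FPKM in drug libraries, nearly all from PECAM1, with KDR not listed. Of 7 leukocyte markers PTPRC, CD3E, CD68 and MARCO were not listed, and the sum of 181 to 184 FPKM in control and 283 to 287 FPKM in drug libraries came nearly all from LYZ, which rose.

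**Figure D5:**
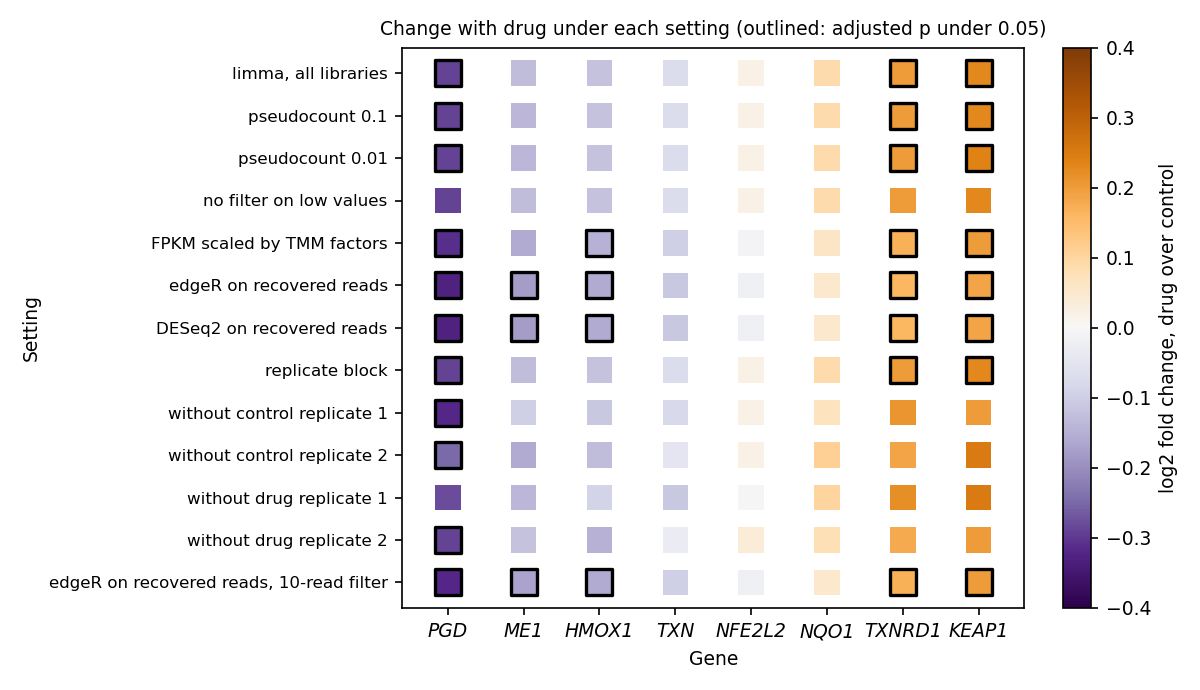
Log2 fold change of the 8 tested members (colour, orange higher and purple lower with drug) under limma with all libraries and 12 other settings, with an outline where the adjusted p is under 0.05. PGD keeps its outline in 10 of the 12, KEAP1 and TXNRD1 in 7, HMOX1 gains one in 4 and ME1 in 3, and NQO1, TXN and NFE2L2 have none.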

How the data were processed

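Messenger RNA of PLC8024 cells was measured in 2 control and 2 drug libraries, grouped by title. Per the labels' protocols, trizol extraction preceded a stranded TruSeq mRNA preparation. Per the submitters' processing notes, bcl2fastq was used and the build was hg38. For aligner, counter, annotation and test: not given in the sources used here. Library columns are deposited FPKM, a unit inferred from the values: over 10538 genes with at least 100 reads, implied length divided by GENCODE 29 exon length had a median of 1.0. The group columns are a deposited signal, mean reads after division by size factors. The table's log2 fold changes and p-values were made by the authors, per the file headers.

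Whole reads were recovered from FPKM and group means jointly (100% of values within 0.1 read). The test was limma 3.58.1 with trend, two-sided, applied to log2(FPKM + 1) of genes averaging 1 FPKM or more in either group. Adjustment was by Benjamini and Hochberg over all tested genes, with a threshold of 0.05. This scale understates changes of low genes. Alternatives were pseudocounts of 0.1 and 0.01, no filter, TMM-scaled FPKM, edgeR 4.0.16 (quasi-likelihood) and DESeq2 1.42.0 on recovered reads, the replicate number as a block, and omission of each library. Added after the data were seen were edgeR on genes with at least 10 reads in 2 libraries and levels by principal transcript length. The fits were tested on simulated reads in which 50 genes each changed by a fold of 1.25, 1.5, 2 or 4. At a fold of 1.25 limma called 8% of genes and edgeR 46%, so changes of this size were often missed. Of unchanged genes limma called 0.0725% and edgeR 0.127%. Far fewer genes were changed there than passed in the real data, where these shares may differ.

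The members and 6 lists (112 genes, 107 in the table) were chosen with earlier results of these data known. The rule for named list genes took, per list and direction, up to 3 that passed, by size, with non-overlapping groups. Any other list gene was named after its values were seen. Results for 1 list gene are not reported here. Other software was Python 3.11.15 (scipy 1.17.1, numpy 2.4.6, pandas 2.3.3, matplotlib 3.10.9) and R 4.3.3.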

Additional observations from a re-analysis of the deposited data

How the results depend on the processing

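Pseudocounts of 0.1 and 0.01 changed no call of a member. With no filter on low values, and so more genes tested, 170 genes were higher and 214 lower, 0 members were higher and 0 lower, and 2 list genes were higher and 5 lower. TMM-scaled FPKM gave 549 genes higher and 2 members lower. EdgeR and DESeq2 on recovered reads gave 1233 and 1109 genes lower, 3 members lower by each, and 30 and 31 list genes lower, and edgeR with the filter of 10 reads, added after the data were seen, gave 1233, 3 and 29. With 1 library left out, where the lone sample of a group is assumed to vary like the other group, 115 to 221 genes were higher and 188 to 274 lower, 0 members were higher and 0 to 1 lower, and 1 to 2 list genes were higher and 5 to 9 lower. The direction of NFE2L2 reversed, to -0.01 with TMM-scaled FPKM, -0.02 with edgeR under either filter and with DESeq2, and -0.0032 without drug 1. With 1 library left out it ran from -0.0032 to 0.04. The other 7 tested members kept their sign throughout. The cause of these differences was not tested. Libraries share replicate numbers, which the labels do not explain. Deviations of same-numbered libraries correlated at 0.0278 across genes, and with the replicate number as a block 474 genes and 5 list genes were higher and 451 genes and 14 list genes lower. KEAP1, TXNRD1 and PGD still passed, and 6 of the 21 named list genes did not.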

Other observations

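Another 4 genes of the NRF2 target list, named after their values were seen, passed as lower. FTL, the ferritin light chain gene, was at 6060 and 6094 FPKM in the controls, against 4905 and 4912 FPKM with drug (limma adjusted p = 0.00784), while the ferritin heavy chain gene FTH1 on the same list did not pass (log2 fold change -0.09, 0.118). SLC7A11, the cystine importer gene that supplies glutathione synthesis, was at 5.09 and 4.75 FPKM in the controls, against 3.54 and 3.88 FPKM with drug (0.0321), a fall in the same libraries in which GCLC and GCLM rose. AKR1C3 was at 7.01 and 6.74 FPKM in the controls, against 5.03 and 4.76 FPKM with drug (0.00997), and AKR1C1 at 12.7 and 12.5 and at 10.6 and 10.5 FPKM (0.0171). These neighbours of AKR1C2 are close in sequence, and the split of reads among them is uncertain. With no filter on low values none of the 4 passed (0.328 for FTL, 0.118 for SLC7A11, 0.0509 for AKR1C3 and 0.0537 for AKR1C1). With 1 library left out, FTL and AKR1C3 lost their calls without control 1 or control 2 (0.0573 to 0.078), and SLC7A11 and AKR1C1 whichever library was left out (0.0689 to 0.139). SLC7A11 also lost it with the replicate number as a block (0.0708).

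Reads of 2 list genes differed widely between the control libraries. SQSTM1, which encodes an adaptor that removes KEAP1 by autophagy, had 1595 reads in control 1 and 433 in control 2, and 785 and 569 with drug. HMOX2, the constitutive heme oxygenase gene, had 541 reads in control 1 and 45 in control 2, against 432 and 408 with drug. Neither passed in limma (adjusted p = 0.585 and 0.687).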
